A study of Mus musculus with 6 samples.

Results

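The nuclear genes for the large subunit of the mitochondrial ribosome and for the protein import machinery of mitochondria were examined in adrenal gland RNA of mice without the neuropeptide PACAP. Members were defined by symbol: Mrpl followed by a number for the ribosomal genes, and Timm or Tomm followed by a digit for the import genes. This rule was set with earlier results of these data known. The rule found 139 cDNA clones of 68 genes among 35961 clones and 11837 named genes on the array. Of these, 90 clones of 46 genes were ribosomal and 49 clones of 22 genes belonged to the import machinery. A clone was tested when its ratio passed the quality filter on at least 4 of the 6 arrays. That left 81 Mrpl clones of 41 genes and 43 Timm and Tomm clones of 21 genes. The 9 untested Mrpl clones and 6 untested import clones were dim, and Mrpl13, Mrpl28, Mrpl33, Mrpl43, Mrpl46 and Timm10 had no tested clone.

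Mitochondria keep a small genome of their own, and the proteins it encodes, all subunits of the respiratory chain and the ATP synthase in mammals, are made on a separate mitochondrial ribosome. The large subunit of that ribosome joins the amino acids, and its proteins are encoded in the nucleus, made in the cytosol and carried into the organelle. Nearly all other mitochondrial proteins take the same route, through the TOM complex of the outer membrane, the small chaperones of the intermembrane space, and the TIM23 and TIM22 complexes of the inner membrane. In the adrenal cortex, mitochondria also carry out steps of steroid hormone synthesis.

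Each array compared RNA of a PACAP -/- adrenal gland sample with RNA of a PACAP +/+ one, both from mice of the mixed 129XC57BL6 F2 background. PACAP (Adcyap1) is a transmitter of the splanchnic nerve, though not its only one, and acts on the chromaffin cells of the adrenal medulla. The comparison asks which adrenal transcripts depend on it. Knockout RNA carried Cy3 (green) and wild-type RNA carried Cy5 (red) on all 6 arrays. The dyes were never exchanged, so that a dye effect and a genotype effect on a clone cannot be told apart. The labels number the arrays as repeats without saying that they came from separate animals, so p-values measure the spread between arrays, which may be technical. Age, sex and any pooling of animals are not stated in the sources used here.

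The knockout channel was bright and the wild-type channel dim. The median background-subtracted signal of an array was 5.33 to 6.99 times its local background in the knockout channel and 1.13 to 4.74 times in the wild-type channel, with arrays 2 and 4 the dimmest in wild type. Signals given below are these intensities before normalization, and compare the channels of an array only after normalization. The median Mrpl clone lay at 5.85 times background in the knockout channel and 1.80 times in the wild-type channel, and the median Timm or Tomm clone at 6.06 and 1.58 times. No member spot was saturated. Markers of the gland gave signal in both channels. All 5 medulla markers on the array reached 2 times background in the knockout channel and 4 of them in the wild-type channel. Of the 7 cortex markers, all did so in the knockout channel and 6 in the wild-type channel. The markers of kidney, muscle, macrophages, red cells and fat on the array also reached it in the knockout channel, 8 genes in all. In the wild-type channel 6 of the 8 did so. The level of 2 times background lay below the median of every array in the knockout channel. Reaching it therefore does not tell the adrenal from other tissues. Adcyap1 itself, with 1 clone that passed the filter on 2 arrays, gave no check of the genotype.

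Neither the ribosomal nor the import genes moved together. All ratios are log2 of knockout over wild type after global loess, which removes the trend of the ratio with brightness over the whole array, and a clone was called when its adjusted p in limma was below 0.05 over all 28664 tested clones. Of the 81 Mrpl clones, 13 were called higher in the knockout, 9 lower, and 59 were not called. Of the 43 import clones, 7 were called higher, 6 lower, and 30 were not called. These are 27.2% of the Mrpl and 30.2% of the import clones, where 30.4% of all clones on the array were called, 16.2% higher and 14.2% lower. The called clones belonged to 18 Mrpl genes and 10 import genes. Marker genes of the medulla had a median log2 ratio of 1.01 (3 of 5 called higher and 1 lower) and those of the cortex one of 0.64 (4 of 7 called higher). After print-tip loess the medians were 0.39 (1 higher, 1 lower) and 0.67 (3 higher). Their part in the members' ratios was not tested. In whole-gland RNA, a change in the number of cells of a type and a change in RNA per cell cannot be told apart.

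The centre of each group stayed near 0. The median log2 ratio was 0.03 for the Mrpl clones (quartiles -0.12 and 0.30) and 0.06 for the import clones (quartiles -0.17 and 0.31), beside 0.02 for all clones. The Mrpl clones ran from -0.79 to 0.90 and the import clones from -0.72 to 1.00. On arrays 1 to 6 the median of the Mrpl clones was -0.06, 0.01, 0.02, 0.10, 0.05 and 0.06. The median of the import clones was 0.06, 0.04, 0.05, 0.17, 0.01 and 0.15. The ribosomal median was thus the lower of the pair on 5 of the 6 arrays, but by little: the difference, Mrpl minus import, averaged -0.05 ± 0.05 (SD, n = 6 arrays), as large as its own spread. After print-tip loess, which fits the trend separately in each of the 48 print blocks, it averaged -0.05 ± 0.08. No test was made of these medians, because members were chosen with earlier results known.

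**Figure D1:**
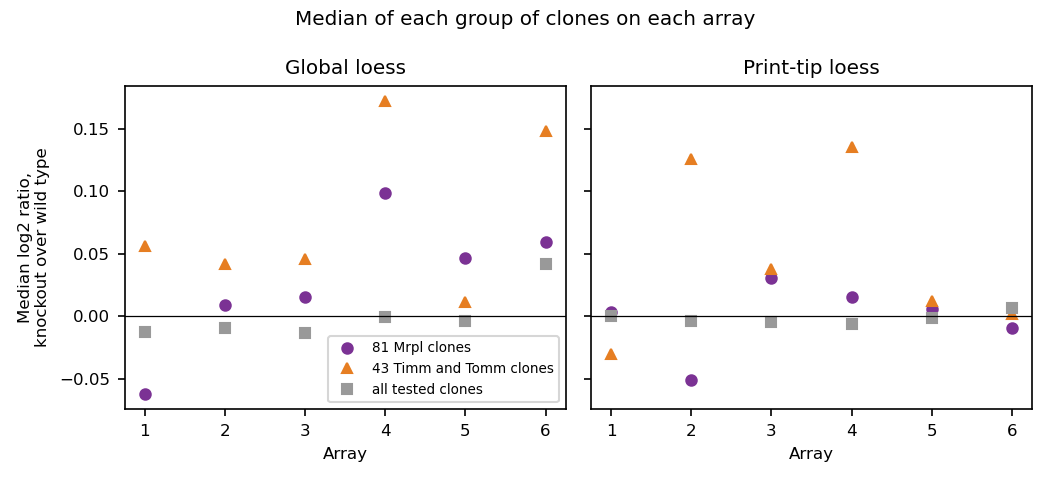
Median log2 ratio (y axis, knockout over wild type) of the 81 Mrpl clones, the 43 Timm and Tomm clones and all tested clones on each of the 6 arrays (x axis), after global loess (left) and print-tip loess (right). The Mrpl and import medians lie between -0.06 and 0.17 on every array and change order between arrays.

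Most of these calls followed the place of the clone on the slide. A print block is the patch of spots laid down by 1 pin. The mean log2 ratio of all spots of a block ran from -0.57 to 0.56, and 46.9% of the variance of the clones' ratios lay between blocks. Across the 81 Mrpl clones the ratio correlated with the mean of the clone's block at r = 0.745, and across the 43 import clones at r = 0.876. These are descriptions over clones that share arrays and blocks, and each clone is itself part of its block's mean. In blocks with a mean below 0, 9 of 28 Mrpl clones and 6 of 16 import clones were called lower and 0 were called higher. In blocks with a mean above 0, 13 of 53 Mrpl clones and 7 of 27 import clones were called higher and 0 were called lower. Of all clones printed in 1 block, 33.6% were called lower and 2.91% higher in blocks with a mean below 0, and 24.6% were called higher and 1.61% lower in blocks with a mean above 0. The member clones thus had shares near those of any clone printed in such blocks. All 15 lower calls lay in blocks 1 to 17 and all 20 higher calls in blocks 27 to 48.

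With print-tip loess few of the calls were left. Of the 81 Mrpl clones 6 were called, 4 higher and 2 lower (7.41%), and of the 43 import clones 1 was called, as higher (2.33%), where 11.2% of all clones were called, 6.67% higher and 4.55% lower. At an unadjusted p below 0.05 the counts were 20 Mrpl and 5 import clones. Only 3 of the 22 Mrpl calls and 1 of the 13 import calls were made in the same direction in both normalizations: the Mrpl15 clone of block 27, the Mrpl51 clone of block 33 and the Mrpl52 clone of block 13, and the Tomm40 clone of block 48. The ratio changed sign for 6 of the 22 and 3 of the 13. The typical size of a ratio also shrank. The median absolute log2 ratio was 0.14 for Mrpl clones and 0.09 for import clones after print-tip loess, against 0.24 and 0.30 after global loess, and 0.15 and 0.26 for all clones. The correlation with the block mean was then -0.06 for Mrpl and 0.38 for import clones. No member call by print-tip loess was stable to the loss of an array: without array 2, 3, 4 or 6 no Mrpl, Timm or Tomm clone was called. Over all clones on the slide the count was 3216, but 1, 1, 19 and 1 without arrays 2, 3, 4 and 6.

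**Figure D2:**
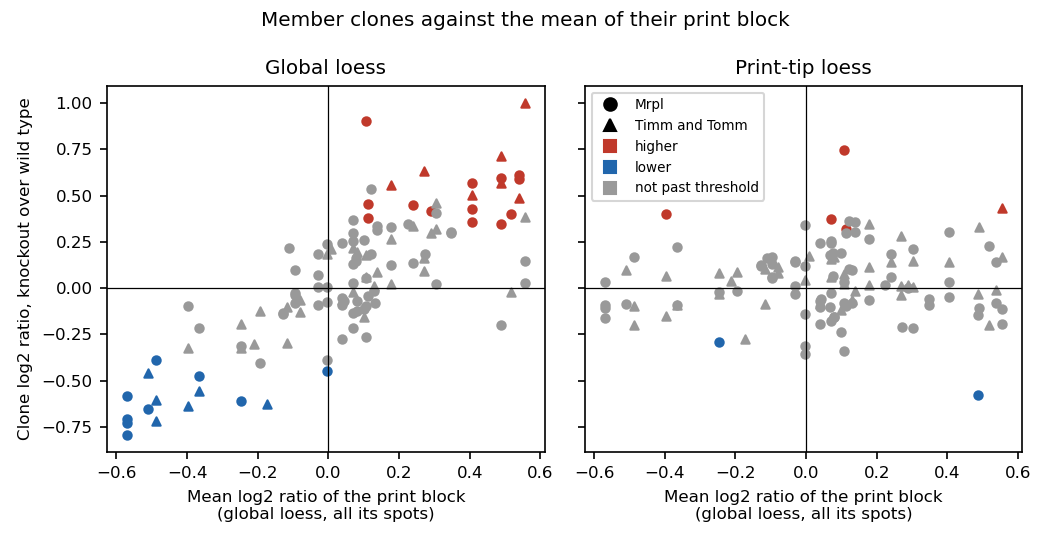
Log2 ratio of each tested Mrpl (circles) and Timm or Tomm (triangles) clone (y axis, knockout over wild type) against the mean log2 ratio of all spots of its print block after global loess (x axis). After global loess (left) the ratios follow the block mean and every lower call sits left of 0, whereas after print-tip loess (right) 7 clones are called.

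Tomm40, the channel-forming subunit of the TOM complex, gave the highest ratio of all members. Its clone of block 48 had a log2 ratio of 0.93, 1.15, 1.21, 1.82, 0.57 and 0.33 on arrays 1 to 6. The knockout signal was 388 at its lowest, 771 at its median and 1054 at its highest, against a wild-type signal of 56.4, 134 and 178. All 6 arrays lay above 0, with array 4 the highest and array 6 the lowest. The mean was 1.00 ± 0.17 (SE, n = 6, a 2.00-fold difference, adjusted p = 0.00165). After print-tip loess the 6 values were 0.36, 0.53, 0.36, 0.98, 0.32 and 0.03, still all above 0, with a mean of 0.43 ± 0.11 (1.35-fold, adjusted p = 0.0408). With any 1 array left out the ratio stayed called by global loess (0.84 to 1.14), but by print-tip loess it was not called in any of the 6 fits (0.32 to 0.51, adjusted p 0.0517 to 0.105). By global loess it was 0.84 with spots below local background left out and 0.76 without arrays 2 and 4, and stayed called. Without these arrays print-tip loess gave 0.27 and no call. The part of the weak wild-type channel in this result was not tested.

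The other Tomm40 clone, printed in block 39, was brighter and pointed the same way. Its ratios were 0.42, 0.23, 0.62, 0.78, 0.64 and 1.10 on arrays 1 to 6. The knockout signal had a median of 2481 (1576 to 2847), against a wild-type median of 719 (183 to 1609). Here array 6 was the highest and array 2 the lowest, an order unlike that of the first clone. The mean was 0.63 ± 0.13 (n = 6, 1.55-fold, adjusted p = 0.00443), called in all 6 fits without 1 array. Print-tip loess gave 0.28 ± 0.09 and no call (adjusted p = 0.0715). In the authors' deposited value table, centred by array, this clone was at -0.002. There the clone of block 48 was at 2.315 and was not called (adjusted p = 0.0698). Block 48 has the highest mean ratio on the slide (0.56), and block 39 is at 0.27. Tomm40 lies on chromosome 7 from 19701313 to 19715442 (GRCm38.p6), and where in its transcript the clones lie was not given in the sources used here.

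The small TOM subunits beside the channel are Tomm5, Tomm6 and Tomm7, which stabilise the complex. They had 4 tested clones at -0.19 to 0.32, and at -0.04 to 0.08 after print-tip loess, none called. Of all clones 30.4% were called by global loess and 11.2% by print-tip loess, and 4 clones are too few to set against these shares. The scanner files title the Tomm6 clone as the protease gene Usp5 and the Tomm7 clone of block 20 as Cdkn1a, so that their identity is uncertain. Tomm34, a cytosolic cochaperone of preproteins, had 1 tested clone at -0.02.

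The import receptors, which recognise incoming proteins at the surface of the outer membrane, were called in opposite directions. Of their 12 tested clones 1 was called higher, 2 were called lower and 9 were not called, and after print-tip loess none was called. These are 25.0% and 0%, where 30.4% and 11.2% of all clones were called. The 5 Tomm20 clones ran from -0.32 in block 9 to 0.46 in block 20. After print-tip loess the same 5 clones lay at 0.06 to 0.16, a spread of 0.09, against 0.78 before. Of the 4 Tomm22 clones, those of blocks 5 and 6 were called lower at -0.46 ± 0.15 and -0.56 ± 0.20 (adjusted p = 0.0345 and 0.0449), while those of blocks 18 and 31 were at -0.10 and 0.02. The call of the first ended without array 3, 4, 5 or 6 and that of the second without array 2, 3, 4 or 6 (-0.57 to -0.35 and -0.71 to -0.32 over the 6 fits each), and all 4 clones lay between -0.09 and 0.10 after print-tip loess. The scanner files title these 4 clones as ring finger protein 13, another gene. Tomm70a had clones at -0.30, 0.06 and 0.56 in blocks 18, 27 and 31, of which the last was called higher (adjusted p = 0.0243). Its call ended without array 2 or 4 (0.38 to 0.66), and print-tip loess put it at 0.34 (adjusted p = 0.211).

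The presequence translocase TIM23 and its motor draw proteins with a cleavable signal through the inner membrane. Of 10 tested clones 3 were called higher and 1 lower by global loess, and none by print-tip loess. These are 40.0% and 0%, where 30.4% and 11.2% of all clones were called. Both clones of Timm17a, a core subunit of the translocase, were called higher: the clone of block 32 at 0.72 ± 0.12 (1.64-fold, adjusted p = 0.00176, 0.49 to 0.98 over the 6 arrays) and that of block 40 at 0.49 ± 0.12. Both stayed called with any 1 array left out (0.66 to 0.76 and 0.43 to 0.55). Print-tip loess put the first at 0.33 (adjusted p = 0.0621) and the second at -0.01. Its counterpart Timm17b had clones at -0.12 and 0.30 in blocks 14 and 47, neither called. Timm44, which tethers the motor chaperone, was called higher at 0.50 in block 28 and was at 0.01 in block 45. The first call ended without array 2 or 4 (0.41 to 0.57). Timm50, the receptor of the complex, was called lower at -0.60 in block 2 and was at 0.18 and 0.21 in blocks 27 and 26. Timm21 was at -0.02.

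The carrier translocase TIM22 inserts proteins with several membrane spans, such as metabolite carriers. Timm22, its channel, was called lower at -0.62 ± 0.16 (0.649-fold, adjusted p = 0.0123) on the 4 arrays that measured it, at -0.78 to -0.30, and was at -0.28 after print-tip loess (adjusted p = 0.117). No array that measured it could be left out under the minimum of 4 arrays. Its partner Timm29 had 4 clones from -0.06 to 0.38, none called.

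The small chaperones of the intermembrane space escort hydrophobic proteins between the outer and inner membranes. Of 9 tested clones 1 was called higher and 2 lower, and none after print-tip loess. These are 33.3% and 0%, where 30.4% and 11.2% of all clones were called. Timm8b in block 2 was at -1.26 at its lowest, -0.72 at its median and -0.24 at its highest array, with a mean of -0.72 ± 0.15 (0.608-fold, adjusted p = 0.00384), called in all 6 fits without 1 array. Timm9 in block 9 was below 0 on all 5 arrays that measured it (-1.10 to -0.23, mean -0.64 ± 0.16, adjusted p = 0.0109), and lost its call without array 4 (-0.54, adjusted p = 0.0546). Print-tip loess put Timm8b at -0.20 (adjusted p = 0.098) and Timm9 at -0.15 (adjusted p = 0.31). Timm8a2 in block 36 was called higher at 0.57 ± 0.12, but was at -0.03 after print-tip loess, and its relative Timm8a1 was at -0.30 and not called. The 4 Timm13 clones ran from -0.32 to 0.26 and Timm10b was at 0.09, none of them called. The scanner files title 2 of the 4 Timm13 clones as Timm9, so that values of this family may belong to another of its members.

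**Figure D3:**
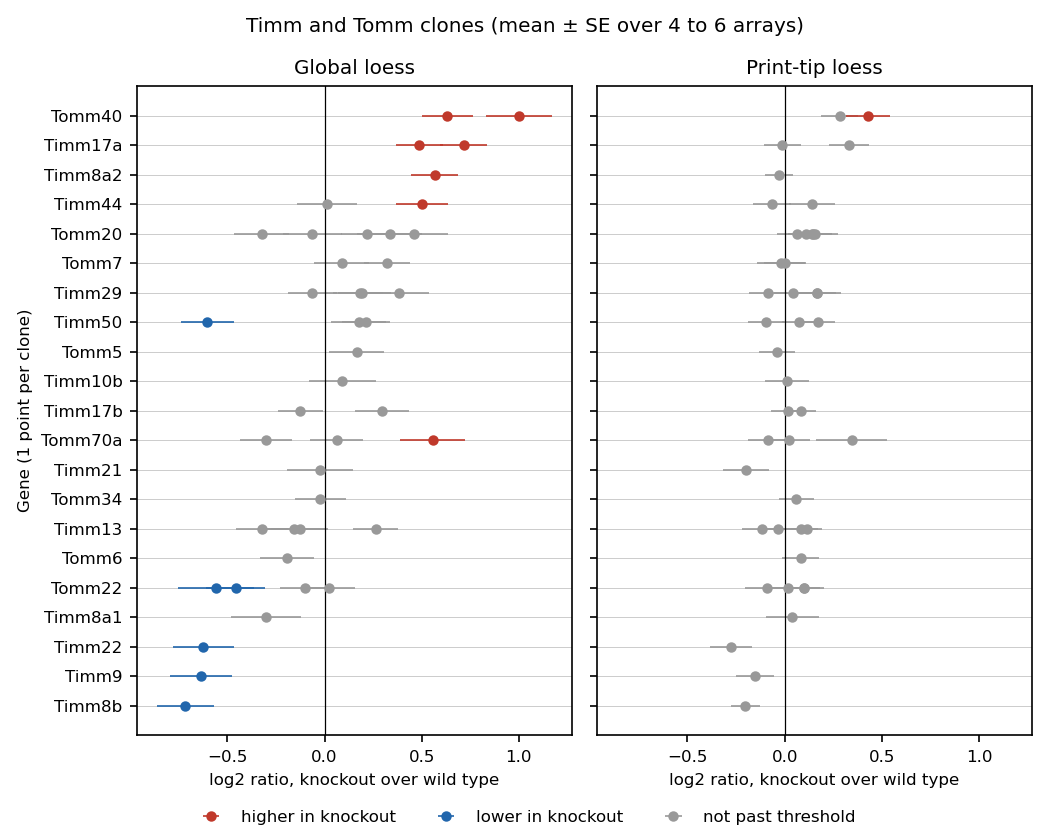
Log2 ratio (x axis, knockout over wild type, mean ± SE over 4 to 6 arrays) of each tested Timm and Tomm clone, 1 point per clone, by gene (y axis), after global loess (left) and print-tip loess (right). Clones of 1 gene spread on both sides of 0 for 7 of the 11 genes with several clones (left), and 1 Tomm40 clone stays called on the right.

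Among the ribosomal genes, the highest ratio belonged to 1 of 4 Mrpl15 clones. Mrpl15 is the mitochondrial relative of bacterial ribosomal protein L15. Its clone of block 27 had log2 ratios of 0.09, 1.44, 0.19, 1.75, 0.12 and 1.81 on arrays 1 to 6. Arrays 2, 4 and 6 were high and arrays 1, 3 and 5 near 0. The knockout signal of this clone was 1442, 1187, 1465, 1377, 1268 and 2026 on these arrays, against a wild-type signal of 1092, 154, 539, 118, 508 and 144. The 3 high ratios thus came with the 3 lowest wild-type signals, and arrays 2, 4 and 6 were also those with the dimmest wild-type channel over all spots (1.36, 1.13 and 1.63 times background, against 4.74, 2.05 and 2.08 on arrays 1, 3 and 5). Without arrays 2 and 4 the mean of this clone was 0.55 and was not called. The part of the weak channel in this result was not tested.

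The mean of that Mrpl15 clone was 0.90 ± 0.23 (SE, n = 6, 1.87-fold, adjusted p = 0.0121), and 0.74 ± 0.20 after print-tip loess (adjusted p = 0.0436). Without array 4 it was 0.73 and not called (adjusted p = 0.0512), and by print-tip loess the call ended without array 2, 3, 4 or 6. The other Mrpl15 clones did not share it. In block 36, which holds a brighter and a dimmer clone, the brighter was called higher by global loess (0.34, adjusted p = 0.0373, called in 0 of the 6 fits without 1 array) but was at -0.15 after print-tip loess. The dimmer was at -0.20 by global loess and was called lower by print-tip loess (-0.58 ± 0.14, adjusted p = 0.0366, a call that ended without array 2, 3, 4 or 6). The clone of block 31 was at 0.12, and at -0.07 after print-tip loess. Mrpl15 was thus called in opposite directions within 1 normalization. Mrpl15 lies on chromosome 1 from 4773198 to 4785750 (GRCm38.p6).

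Mrpl52 gave a steady lower ratio. Mrpl52 is a subunit that bacterial ribosomes lack. Its clone of block 13 was at -0.54, -0.60, -0.66, -0.55, -0.45 and -0.85 on arrays 1 to 6. The knockout signal had a median of 5216 (3215 to 5978), against a wild-type median of 3913 (1973 to 7297), among the brighter members. The mean was -0.61 ± 0.12 (0.655-fold, adjusted p = 0.00284), and the clone stayed called in all 6 fits without 1 array (-0.64 to -0.56). After print-tip loess it was at -0.29 ± 0.08 (adjusted p = 0.0492), with every array below 0, and was not called in any of the 6 fits. The second Mrpl52 clone, in block 15, was at -0.09 and, after print-tip loess, at 0.01 (95% interval -0.20 to 0.22).

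Mrpl51, another subunit without a bacterial relative, was called higher in both normalizations by a small margin. Its clone of block 33 was at -0.10, 0.72, 0.40, 0.40, 0.64 and 0.22, so that 5 of 6 arrays lay above 0. The mean was 0.38 ± 0.13 (1.30-fold, adjusted p = 0.0431), and 0.32 ± 0.09 after print-tip loess (1.25-fold, adjusted p = 0.0452). The call of global loess ended without array 2, 3, 4 or 5 (0.31 to 0.48), and that of print-tip loess without any array but array 1. It also ended with spots below local background left out (0.28, adjusted p = 0.204) and with no quality filter (0.39, adjusted p = 0.0631). A further background correction (normexp) gave no call either (0.31, adjusted p = 0.0557). The clone stayed called with median centring (0.44) and with block medians set to 0 (0.31). The second clone, in block 38, was at 0.15 and 0.19 and was not called. Mrpl51 lies on chromosome 6 from 125192200 to 125194392 and Mrpl52 on chromosome 14 from 54426909 to 54429750 (GRCm38.p6).

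**Figure D4:**
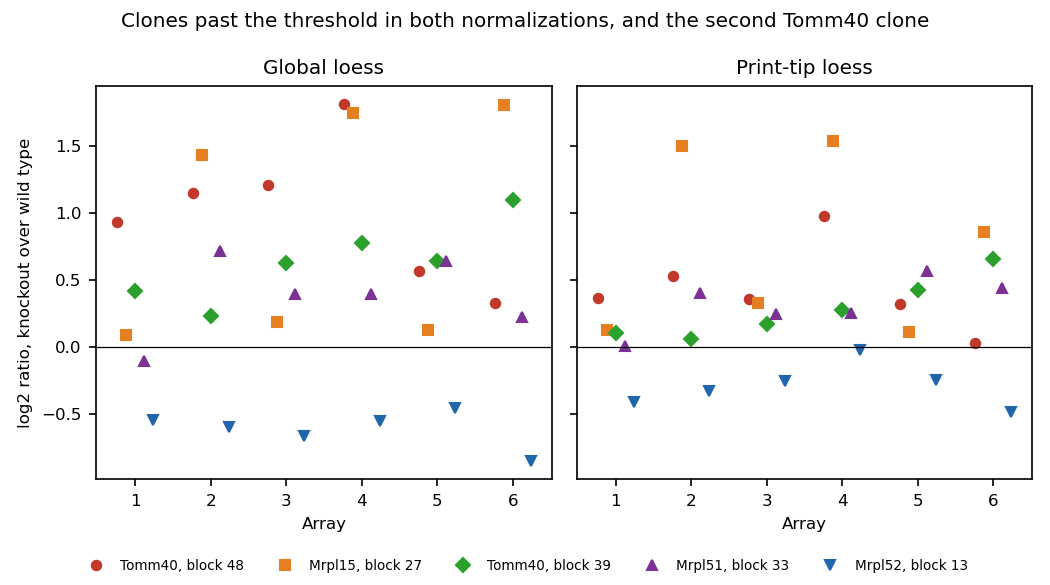
Log2 ratio (y axis, knockout over wild type) on each array (x axis) of the 4 clones called in both normalizations and of the second Tomm40 clone (block 39), after global loess (left) and print-tip loess (right); points of an array are set side by side. Mrpl15 in block 27 is high on arrays 2, 4 and 6 only, whereas Mrpl52 in block 13 is below 0 on every array.

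The other large Mrpl ratios were called by global loess alone. Mrpl16, a relative of bacterial L16, was at 0.61 ± 0.12 in block 40 (0.32 to 0.86 over the 6 arrays, adjusted p = 0.00346), and print-tip loess put it at 0.14. Mrpl35 in block 1 was below 0 on all 5 arrays that measured it (-1.28 to -0.17, mean -0.79 ± 0.17, adjusted p = 0.00593), and print-tip loess put it at -0.16. Both were called in all 6 fits without 1 array, but neither had a second clone. Mrpl45, which lies at the exit of the ribosome's tunnel and anchors it to the inner membrane, had clones of both signs. Its 2 clones in block 1, a brighter and a dimmer, were at -0.71 ± 0.13 and -0.73 ± 0.13 (adjusted p = 0.00284 and 0.00235), below 0 on all 6 arrays, while its clone in block 24 was at 0.30. Print-tip loess put all 3 between -0.11 and -0.06.

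Mrpl48 was called in opposite directions by global loess. Its clone of block 32 was at 0.60 ± 0.15 (0.22 to 1.30 over the arrays, adjusted p = 0.00991) and above 0 on all 6 arrays. Its clone of block 8 was at -0.45 ± 0.16 (-0.98 to 0.25, adjusted p = 0.0435) and below 0 on 5. The first kept its call in all 6 fits without 1 array, whereas the second lost it without array 1, 2, 3, 4 or 6 (-0.58 to -0.34). Print-tip loess put them at -0.11 and -0.35, neither called, and the third clone, in block 20, at 0.21.

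The remaining called Mrpl clones had smaller ratios or no second called clone. Higher calls went to Mrpl9 (0.59), Mrpl39 (0.57), Mrpl50 (0.45), Mrpl49 (0.45), Mrpl10 (0.43), Mrpl19 (0.42) and 2 clones of Mrpl58 (0.36 and 0.40), and lower calls to Mrpl1 (-0.65), Mrpl44 (-0.58), Mrpl42 (-0.47) and Mrpl17 (-0.39). Of the 22 called Mrpl clones, 10 stayed called with each array left out in turn and 12 lost the call in at least 1 fit, mostly without array 4, which left 10 of the 22. Of the 12 called import clones that could be refitted, 7 stayed called and 5 did not. Mrpl39 came near the threshold in print-tip loess as well (0.30, adjusted p = 0.0501). Mrpl58, a peptidyl-tRNA hydrolase built into the large subunit that releases stalled chains, had 5 clones, in blocks 16, 19, 28 and 44. By global loess all were above 0, at 0.30 to 0.40, and these blocks have means of 0.22, 0.07, 0.41 and 0.52. After print-tip loess the clones stayed above 0 at 0.02 to 0.37, a spread of 0.36 against 0.10 before. There 1 of the pair in block 19 was called (0.37, adjusted p = 0.0465). Mrpl40 was called higher by print-tip loess only (0.40, adjusted p = 0.0324), and was at -0.10 by global loess.

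The proteins with bacterial relatives, taken here as those numbered 1 to 36, and those numbered 37 and above, most of which bacteria lack, were compared after their values were seen. Of 45 tested clones of the first kind 6 were called higher (13.3%) and 3 lower (6.67%), with a median of 0.03. Of 36 tested clones of the second kind 7 were called higher (19.4%) and 6 lower (16.7%), with a median of 0.04. Of all clones 16.2% were called higher and 14.2% lower, and their median was 0.02. By print-tip loess 2 of the 45 (4.44%) and 4 of the 36 (11.1%) were called, where 11.2% of all clones were. The difference between the kinds was not tested. At the stalk of the large subunit, where translation factors bind, Mrpl10, Mrpl11 and Mrpl12 had 2 tested clones each. Of these the Mrpl10 clone above was called, and so few clones cannot be set against the 30.4% of all clones. The second Mrpl10 clone was at 0.26, Mrpl11 was at 0.06 and 0.18, and Mrpl12 at 0.03 and -0.10.

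**Figure D5:**
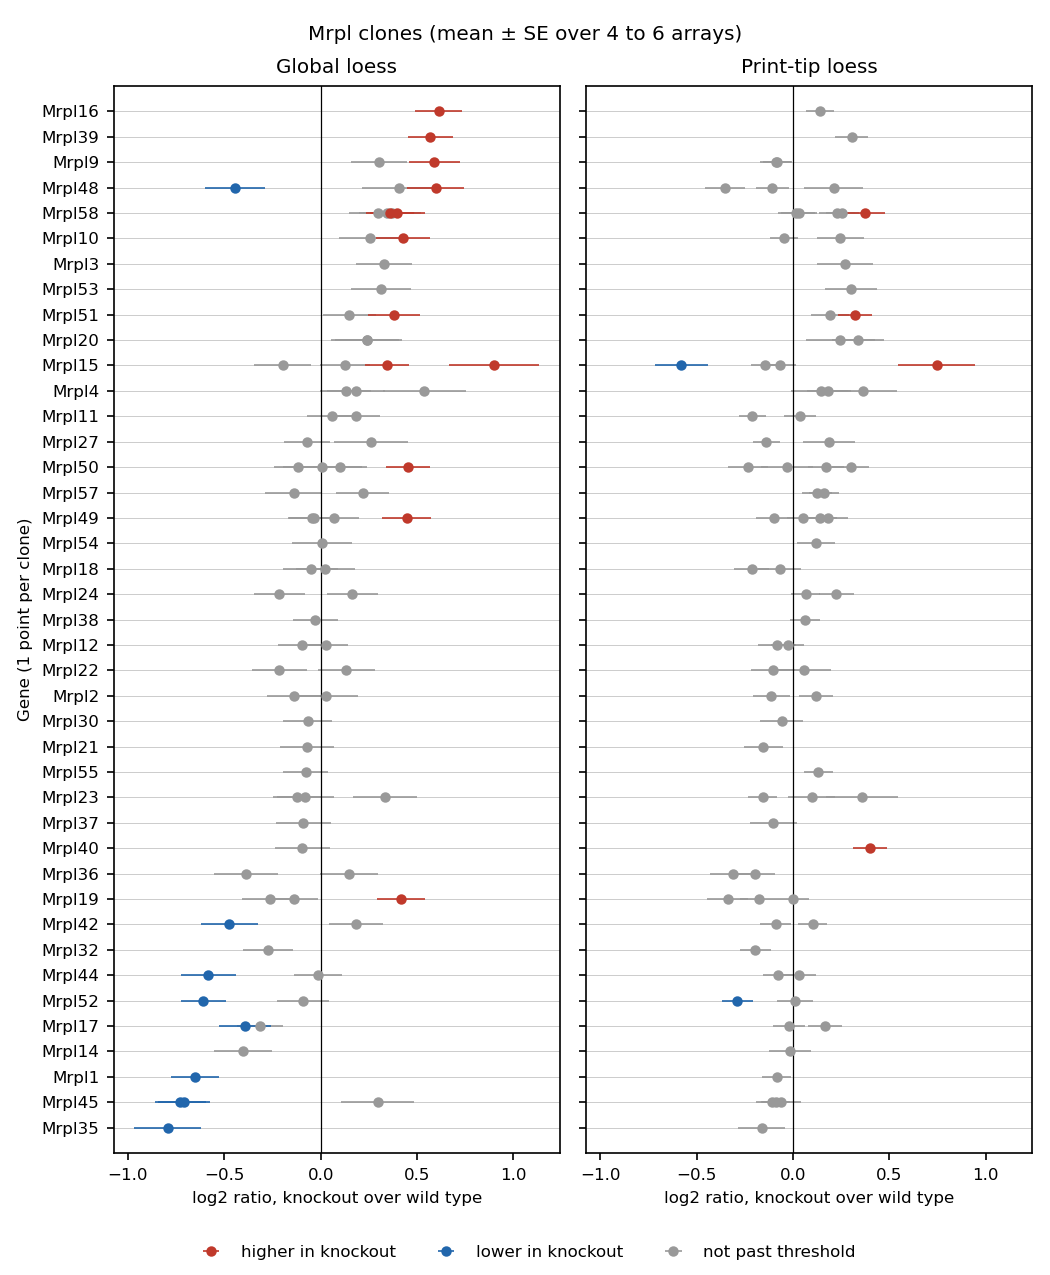
Log2 ratio (x axis, knockout over wild type, mean ± SE over 4 to 6 arrays) of each tested Mrpl clone, 1 point per clone, by gene (y axis), after global loess (left) and print-tip loess (right). On the left 22 clones are called (13 higher, 9 lower) and on the right 6, and clones of Mrpl15, Mrpl45 and Mrpl48 span 1.10, 1.03 and 1.04 on the left.

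Clones of the same gene served as a check within the slide. Among the 37 genes with at least 2 tested clones, 99 clones in all, the highest and lowest clone of a gene differed by a median of 0.42 after global loess and of 0.21 after print-tip loess. The clones of 23 of the 37 genes had both signs, 16 of 26 Mrpl genes and 7 of 11 import genes, and 23 did so after print-tip loess. Every tested clone was called in the same direction for Tomm40 and Timm17a only. The median absolute log2 ratio of all clones also fell between the 2 normalizations, from 0.26 to 0.15. The spread between clones was not taken for other genes of the array, so it cannot be called particular to these genes. Clones of a gene share the RNA and the arrays, so they are not replicates of the genotype.

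The promoters of the members were searched for letters that the selection did not use. RefSeq windows of 250 bases before to 50 bases after a transcript start, which need not be the outer end of the gene, were found for 40 of the 46 Mrpl and 20 of the 22 import genes. The letters CCGGAAG, the core bound by ETS factors such as GABP (NRF-2), a known regulator of nuclear genes for mitochondria, were searched on both strands. They occurred in the windows of 14 Mrpl genes (35.0%) and 8 import genes (40.0%), against 12.9% of 17491 protein-coding genes. The palindrome bound by NRF-1, another such regulator, occurred in 3 Mrpl and 0 import genes (7.5% and 0%, against 1.47%), and AAGATGGCG, a YY1 motif, in 4 and 1 (10.0% and 5.0%, against 2.14%). The last letters of CCGGAAG are the first of AAGATGGCG, so that matches to these motifs can overlap. A match is a description of the letters, and binding was not measured here.

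The windows of 3 genes called in both normalizations are shown for comparison, on their own strand, 5' to 3', with the ETS letters in capitals (CTTCCGG is their reverse complement). The Tomm40 window, chr7:19715380-19715679 (GRCm38.p6, minus strand), holds none of the 3 motifs. The Mrpl51 window, chr6:125191950-125192249 (plus strand), holds 1 ETS match, and the Mrpl52 window, chr14:54426659-54426958 (plus strand), holds 2. The ribosomal genes of this trio, which were called in opposite directions, both hold the letters.
Tomm40: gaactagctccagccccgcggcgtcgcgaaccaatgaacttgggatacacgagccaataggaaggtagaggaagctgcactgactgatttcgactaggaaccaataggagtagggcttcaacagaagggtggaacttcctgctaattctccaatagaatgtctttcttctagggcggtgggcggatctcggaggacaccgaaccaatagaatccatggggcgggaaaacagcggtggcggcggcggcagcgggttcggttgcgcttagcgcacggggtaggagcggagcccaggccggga
Mrpl51: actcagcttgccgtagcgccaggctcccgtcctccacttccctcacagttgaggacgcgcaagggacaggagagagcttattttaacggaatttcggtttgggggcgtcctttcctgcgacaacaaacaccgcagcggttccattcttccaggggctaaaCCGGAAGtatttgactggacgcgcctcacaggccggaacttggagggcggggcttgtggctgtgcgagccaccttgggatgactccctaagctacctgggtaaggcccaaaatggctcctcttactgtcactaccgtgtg
Mrpl52: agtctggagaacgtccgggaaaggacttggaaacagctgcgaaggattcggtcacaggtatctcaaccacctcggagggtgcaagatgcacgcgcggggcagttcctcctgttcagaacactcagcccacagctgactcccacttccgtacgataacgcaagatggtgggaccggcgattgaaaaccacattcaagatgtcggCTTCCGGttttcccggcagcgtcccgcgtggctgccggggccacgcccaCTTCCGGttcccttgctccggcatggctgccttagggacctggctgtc

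Calls in both directions also occurred among other genes of the same machinery. For these lists 1 clone per gene, the brightest, was counted. By that count 31.0% of all 10400 named genes tested were called by global loess and 11.0% by print-tip loess, and no difference of a list from this share was tested. Of 23 tested genes of the small mitoribosomal subunit (Mrps), 5 were called higher and 5 lower, with 0 and 2 after print-tip loess. Those 2, Mrps14 (-0.62, and -0.32 after print-tip loess) and Mrps17 (-0.68 and -0.28), were called in both. Of 15 import partners outside the TIM and TOM names, 4 were called higher and 4 lower. Of these Mtx3, an outer membrane metaxin (0.75 and 1.00), and Pmpcb, the catalytic subunit of the peptidase that removes the import signal (0.72 and 0.61), were called higher in both. Global loess lost Mtx3 without array 2, 4 or 6 (0.58 to 0.93) and Pmpcb without array 4 (0.54 to 0.86).

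The translation and assembly factors of the mitoribosome gave 3 calls by global loess. Of 10 translation factors 1 was called, Mtres1, lower at -0.45 (-0.11 after print-tip loess). Of 13 assembly factors, Eral1, a GTPase that binds the small subunit's RNA, was called lower (-0.94 and -0.40) and Mterf3, needed for assembly of the ribosome, higher (0.86 and 0.35), each in both normalizations. Of 12 mitochondrial tRNA synthetases 2 were called higher and 3 lower, of which Hars2, for histidine, was called lower in both (-0.47 and -0.55), though not without array 3, 4 or 6 by global loess (-0.57 to -0.37). Of 7 genes of mitochondrial DNA expression 1 was called higher and 1 lower, none in both, and the smallest p was that of the transcription factor gene Tfb2m (-0.67, adjusted p = 0.0157). All 7 calls that held in both normalizations here were absent from print-tip loess without array 2, 3, 4 or 6.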

How the data were processed

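Adrenal RNA of knockout and wild-type mice was compared on 6 two-colour cDNA arrays, which the labels number as repeats. Per the series design text the slides were scanned and read with IPLab, background was subtracted, and ratios were used at a combined quality above 0.3; the version of IPLab is not stated there. The authors' intensity columns for both dyes were deposited with background already removed: positions without a clone sat at a median intensity of 1. The deposited ratio column equals red over green after scaling by an array constant. A quality score deposited for every spot was used as the authors used it, at 0.3. The deposited value table holds log2 ratios of red over green, made after a further background subtraction and a floor of 1, and not centred (column medians of -0.10, -1.65, -0.84, -2.59, -0.67 and -1.11); for its alternative the sign was turned and each array centred on its median.

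Log2 ratios of knockout (green) over wild type (red) were taken from spots above that quality, normalized within arrays by global loess (span 0.3, 4 iterations) and averaged per clone. Clones present on 4 or more arrays went through lmFit and eBayes (limma 3.58.1, R 4.3.3), two-sided against no difference, with Benjamini-Hochberg adjustment over 28664 clones. The script was checked on simulated data. Print-tip loess is given beside the main results because it moved the counts of calls by more than 1.5 times. Tables were joined with Python 3.11.15 and pandas 2.3.3.

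Genes were named through the annotation of the value table's probes. Of its 35873 rows, 35793 (99.8%) could be tied to 1 spot, since their values matched on each array to within 0.002. Of 35961 clones 22364 had 1 gene, 1105 had several and were not named and 12492 had none listed. Symbols were updated through the RefSeq table of GRCm38.p6, which held 11616 of 11837 named genes. Annotation of this age can be wrong. Titles in the scanner files that name another gene are given above for some Timm and Tomm clones only. Clones of the related lists and markers had such titles too. Among them were Mrps11, called lower and titled as a potassium channel gene, and the red-cell marker Hbb-b1, titled as myosin Vb.

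Every tested Mrpl, Timm and Tomm gene could be named. Values on every array, or their range, are given for clones called in both normalizations, for the 3 highest and 3 lowest of each group, and for genes whose clones were called in opposite directions; of each related list, the members called in both or else that with the smallest p are named. The members and lists were chosen with earlier results of these data known. Alternatives covered normalization, background, filters, arrays left out and 1 clone per gene.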

Additional observations from a re-analysis of the deposited data

Results flagged for a closer look

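Among 40 series of 6 or 5 values on the arrays (the ratios of the named clones in each normalization and the medians of the groups), 3 had an array far from the others, all after print-tip loess. Chance alone puts about 1 in 20 such series on this list. The dim Mrpl45 clone of block 1 was at -0.43 on array 3, with the nearest other array at -0.10. Mrpl35 in block 1 was at -0.71 on array 2, with the nearest of its other arrays at -0.09. The brighter Mrpl15 clone of block 36 was at -0.0054 on array 6, where the nearest other array was at -0.13. None of these 3 clones was called after print-tip loess.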

How the results depend on the processing

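The direction and size of single ratios and most calls depended on how print blocks were treated. Calls among all clones, Mrpl, Timm and Tomm, and related-list genes numbered 8708, 22, 13 and 28 by global loess. They were 3216, 6, 1 and 9 by print-tip loess, 4326, 11, 2 and 14 with block medians set to 0, and 90, 1, 1 and 0 with the authors' value table. Without arrays 2 and 4 they were 2066, 7, 4 and 7, and with these left out of print-tip loess, an alternative chosen after seeing the data, 81, 0, 0 and 0. With 1 array left out the ranges were 4462 to 8647, 10 to 20, 8 to 13 and 14 to 28 by global loess, and 1 to 3742, 0 to 5, 0 to 1 and 0 to 12 by print-tip loess (19 of all clones without array 4, and 2692 of all and 3 Mrpl clones without array 5); the lowest of global loess came without array 4. At 1 clone per gene, the brightest, 14 of 41 Mrpl genes (34.1%) and 10 of 21 import genes (47.6%) were called, against 31.0% of all named genes, with medians of -0.027 and -0.023, both of the other sign than over all clones. Of all calls 53.2% were higher by global loess, 65.9% with block medians set to 0 and 100% in the value table; of the import calls 53.8%, 100% and 100% were, and of the Mrpl calls 59.1%, 54.5% and 100%.

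The value table put the medians of Mrpl, import and all clones at 0.60, 1.02 and 0.24. Relative to all clones, Mrpl was at 0.36 and import at 0.78, and Mrpl minus import was -0.42. Its 2 member calls were higher ratios of the Tomm20 clone of block 35 and the Mrpl58 clone of block 44. Median centring put the import median at 0.18 and the difference at -0.10. Clones on all 6 arrays gave 0.16 and -0.11, with 0.042 for all clones, and the median of the Mrpl clones with no quality filter was 0.094. With 1 array left out, Mrpl minus import ran from -0.048 to 0.064 by global loess (the upper value without array 5) and from -0.07 to -0.003 by print-tip loess. The medians ran from 0.004 to 0.08 (Mrpl), 0.009 to 0.10 (import) and 0.005 to 0.03 (all clones).

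Some ratios changed sign. In print-tip loess Mrpl48 of block 32 was at -0.11 (-0.088, -0.12, -0.12, -0.096, -0.16 and -0.057 without arrays 1 to 6 in turn, -0.11 without arrays 2 and 4) and the brighter Mrpl15 clone of block 36 at -0.15 (-0.17 to -0.14, and -0.13); with block medians set to 0 the second was at -0.11. In the value table Mrpl48 of block 32 was at -0.55, Mrpl48 of block 8 at 1.14, Timm9 at 1.00, Tomm40 of block 39 at -0.002 and the dimmer Mrpl15 clone of block 36 at 1.55. The cause of these changes was not tested.

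Each array holds 1 knockout and 1 wild-type RNA sample, so the ratio tested is already the paired value, and no further pairing was fitted. A slide block could not be fitted, since each slide holds 1 array. The number of arrays, the single dye orientation and a wild-type signal near background on arrays 2 and 4 limit the precision.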
